A study of Homo sapiens with 3 samples.

Results

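Messenger RNA of 35 genes of glucose breakdown was followed through treatment with romidepsin, a cyclic peptide that inhibits class I histone deacetylases, in OCI-AML2 R50, a cell line of acute myeloid leukaemia (AML). The genes were listed by name and cover glycolysis, the pentose phosphate pathway, lactate dehydrogenase, and the pyruvate dehydrogenase complex with its kinases. All 35 were found among the 25247 gene symbols of the deposited tables, each in a single row that names no other gene. The series holds 3 libraries. There was 1 control library and there were 2 libraries of cells given romidepsin for 18 h, and every culture, the control included, grew in MEMα medium with 15% FBS and 50 µM Ara-C (cytarabine). All libraries thus come from 1 cell line kept in cytarabine, and the sources used here do not give the romidepsin dose, the vehicle, or whether the romidepsin libraries came from separate cultures. The p-values therefore measure no more than library-to-library spread, which may be technical.

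Glycolysis splits glucose to pyruvate in the cytosol, with hexokinase, phosphofructokinase and pyruvate kinase as the steps that are regulated. Lactate dehydrogenase recycles the NAD+ it uses, while pyruvate dehydrogenase carries pyruvate into the mitochondrial citrate cycle and is switched off by its kinases. The pentose phosphate pathway branches off after hexokinase and yields NADPH and the ribose of nucleotides. Several steps are encoded by paralogues with different tissue patterns, and dividing leukaemia cells are known for high expression of many of these enzymes.

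The values are FPKM, which divides fragments by transcript length and by the size of the library, with changes taken on log2(FPKM + 1), a scale on which low genes appear to change less than they do. The control summed to 790922 FPKM and the romidepsin libraries to 668773 and 657213 FPKM, while the steps between low values put their approximate depth at 16800000, 21700000 and 21500000 fragments in that order. The 9 markers of the myeloid leukaemia line all reached 1 FPKM in at least 1 library. Their summed level was 6174 FPKM in the control and 3861 and 3810 with romidepsin, and the part of that fall in the results below was not tested. LYZ alone gave 4258 FPKM of the control sum, so the sum does not show that each marker fell. KIT, at 0.182 FPKM in the control, reached 1 FPKM only with romidepsin. Summed T cell markers were at 0.216, 1.003 and 1.008 FPKM and B cell markers at 0.843, 2.18 and 2.28 FPKM in the control and the romidepsin libraries. The erythroid markers HBA1 and HBB were listed at 0 throughout, as were the epithelial EPCAM and KRT18, the B cell marker MS4A1 and the fibroblast COL1A2. The fibroblast list, read from COL1A1 and COL1A2, summed to 0.0275, 2.30 and 2.54 FPKM, all of it from COL1A1. In bulk RNA, fewer cells of a type and less RNA per cell cannot be told apart.

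In the values as deposited, most of the enzyme genes were lower after romidepsin, and a few paralogues were higher. Testing required 1 FPKM in 1 library or more, which 33 of the 35 genes reached. By limma with Benjamini-Hochberg adjustment over 11708 genes, 8 of the 33 rose and 21 fell, against 34.7% of all tested genes higher and 41.8% lower (76.5% called in either direction). Their median change was -0.31, where the median of all tested genes was -0.05. In each of the 35 genes the control lay outside the pair of romidepsin libraries, below it in 13 and above it in 22. The share of all genes for which this holds was not counted, and the 35 include genes that were not called, such as BPGM. The romidepsin libraries lay close together, with a median gap of 0.037 and a largest gap of 0.20 (in PFKM) on the log2 scale. Both libraries differed from the control by 2-fold or more in ENO2 (higher; background 7.43%) and PGLS (lower; background 3.08%). With at least 1.5-fold in both, a rule chosen after the values were seen, 3 genes were higher (ENO2, PFKFB3 and HK1; background 15.6%) and 6 lower (PGLS, RPIA, LDHA, PDK1, GPI and HK3; background 13.1%).

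**Figure D1:**
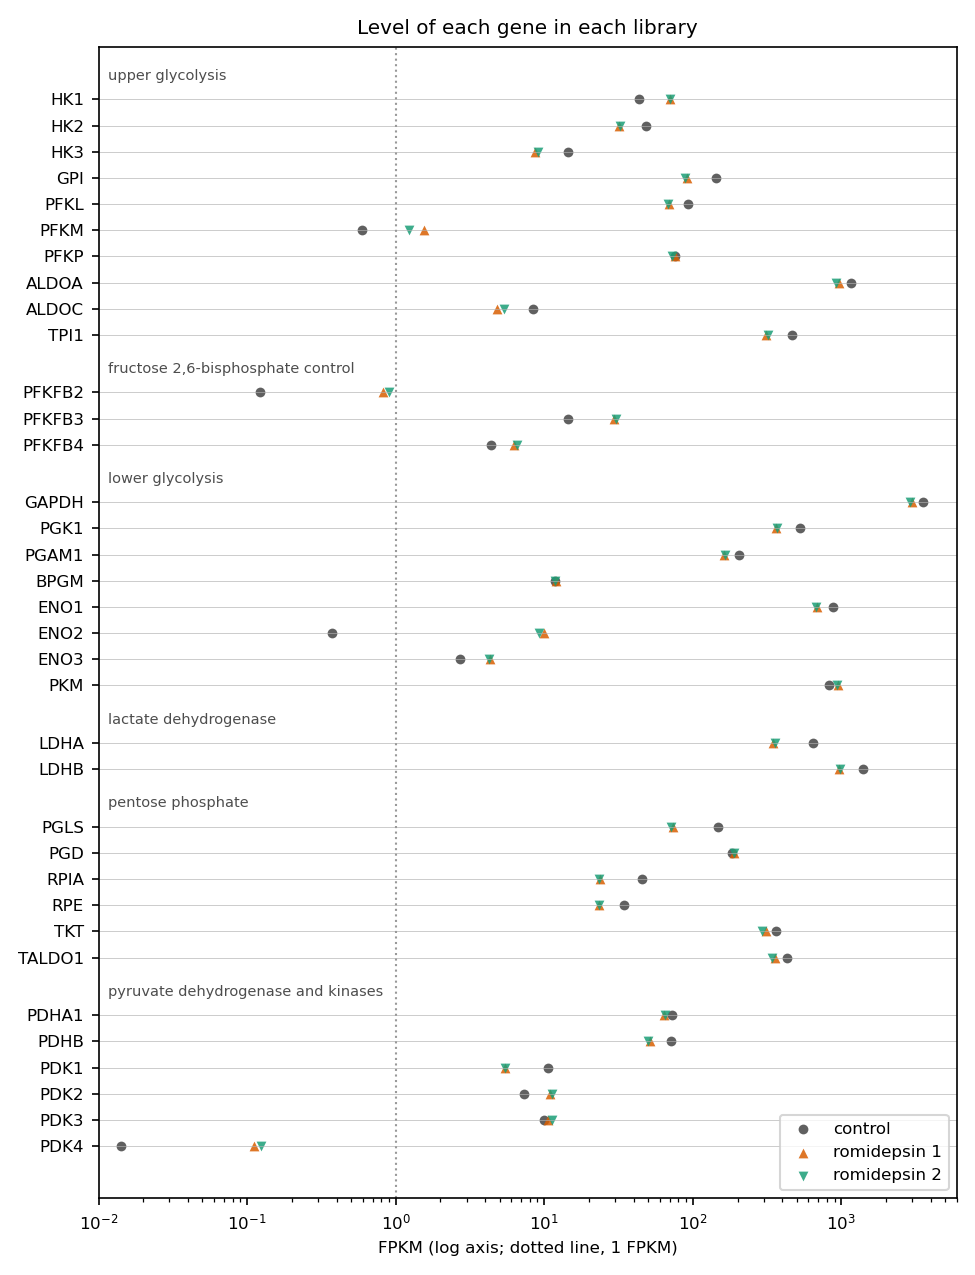
FPKM of each of the 35 genes (log axis) in the control (circles) and the romidepsin libraries (triangles), grouped by role, with a dotted line at 1 FPKM. The romidepsin triangles sit almost on each other, left of the control for 22 genes and right of it for 13, and ENO2 moves farthest.

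The direction of the smaller changes depends on how the libraries are scaled. After scaling the libraries to equal sums, the median of all genes moved by 0.21, and 12 of the 33 genes were called higher and 16 lower (background 48.7% and 26.2%, or 74.9% in either direction), so that 42.9% of the calls were rises instead of 27.6%. With quantile normalization 10 were higher and 14 lower (background 31.7% and 37.5%, or 69.1% in either direction), and rises made up 41.7% of the calls. Under all 3 scalings, 7 genes were called higher (HK1, PFKFB3, PFKFB4, ENO2, ENO3, PKM and PDK2). Called lower under all 3 were 14 (HK2, HK3, GPI, PFKL, ALDOC, TPI1, PGK1, LDHA, LDHB, PGLS, RPIA, RPE, PDHB and PDK1). The share of all tested genes called in the same direction under all 3 scalings was not counted. With no filter on low values 14 calls were lost with adjusted p of 0.0546 to 0.375. They were HK3, PFKM, ALDOA, ALDOC, PFKFB4, GAPDH, ENO1, ENO3, PKM, LDHB, TKT, TALDO1, PDHA1 and PDHB. The share of all genes called without the filter was not counted.

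**Figure D2:**
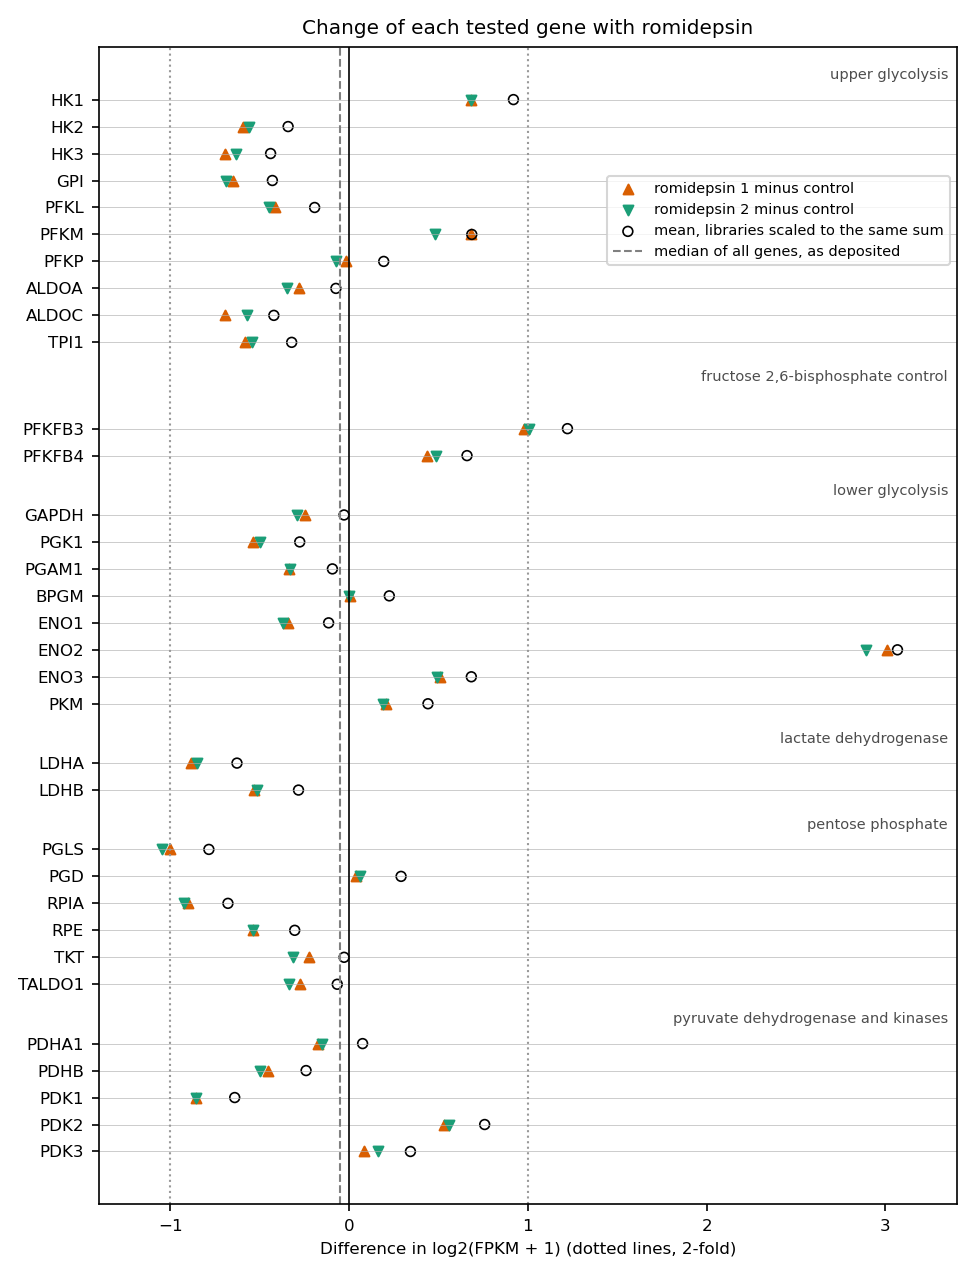
Difference in log2(FPKM + 1) from the control for the 33 tested genes in each romidepsin library (triangles), and the mean difference with libraries scaled to the same sum (open circles). The dashed line marks the median of all tested genes (-0.05) and dotted lines mark 2-fold. Scaling shifts all 33 genes to the right, and only PFKP and PDHA1 cross 0.

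Promoter sequence is shown for 4 genes that moved in opposite directions, because the MYC and hypoxia-inducible factor families, known regulators of glycolytic genes, bind short motifs that share the letters ACGTG. LDHA and HK2 fell, and PFKFB3 and ENO2 rose. These 4 were chosen with their changes known and do not stand for all 35 genes. The sequences are the 250 bases before a transcription start in RefSeq (build GRCh38.p14, while the tables were made on hg19), printed in the direction of the gene, with capitals where ACGTG is read on either strand. For HK2 and PFKFB3 the second of 2 starts in the table is shown and for LDHA the first of 2, because the windows at their other starts hold no CACGTG.
LDHA (chr11:18394313-18394562, + strand): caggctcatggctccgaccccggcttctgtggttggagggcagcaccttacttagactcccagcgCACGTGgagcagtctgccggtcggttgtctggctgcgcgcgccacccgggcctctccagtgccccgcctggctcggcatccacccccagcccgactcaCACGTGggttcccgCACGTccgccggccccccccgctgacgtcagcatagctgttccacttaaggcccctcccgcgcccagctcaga
HK2 (chr2:74834920-74835169, + strand): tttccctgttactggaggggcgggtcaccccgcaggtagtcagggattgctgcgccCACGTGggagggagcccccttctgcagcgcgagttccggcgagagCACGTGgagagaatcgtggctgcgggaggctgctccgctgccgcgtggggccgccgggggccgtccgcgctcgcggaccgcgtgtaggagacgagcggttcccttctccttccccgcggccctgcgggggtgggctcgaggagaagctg
PFKFB3 (chr10:6202682-6202931, + strand): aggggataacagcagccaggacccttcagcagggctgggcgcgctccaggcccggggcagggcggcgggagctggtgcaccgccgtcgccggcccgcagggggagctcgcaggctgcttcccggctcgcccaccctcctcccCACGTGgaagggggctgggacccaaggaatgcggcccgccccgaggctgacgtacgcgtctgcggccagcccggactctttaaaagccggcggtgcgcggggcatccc
ENO2 (chr12:6914330-6914579, + strand): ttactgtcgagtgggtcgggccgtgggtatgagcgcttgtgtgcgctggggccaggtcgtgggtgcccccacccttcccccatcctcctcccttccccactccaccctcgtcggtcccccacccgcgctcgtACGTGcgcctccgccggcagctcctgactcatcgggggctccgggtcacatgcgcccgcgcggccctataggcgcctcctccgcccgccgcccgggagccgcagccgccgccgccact

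The E-box CACGTG, which holds ACGTG on each strand, stands at 2 places in each printed stretch of LDHA and HK2 and at 1 in that of PFKFB3, while the stretch of ENO2 holds ACGTG without it. RefSeq windows of 300 bases (250 before to 50 after a start) were matched for 34 of the 35 genes, all but PFKFB2, with 59 windows in all. CACGTG stood in 13.6% of these windows against 7.26% of 35114 windows of all genes, and ACGTG on either strand in 37.3% against 21.4%. GCGTG on either strand stood in 39.0% against 36.5%. The windows of these genes also had more G and C, with a median of 68% against 58.7%. Of the 8 genes with CACGTG, 6 fell (ALDOA, ALDOC, GAPDH, HK2, LDHA and PDHB) and 2 rose (PDK2 and PFKFB3). Of the 26 without it, 15 fell and 6 rose. Among all tested genes 41.8% fell and 34.7% rose. Among those with at least 100 FPKM in the control, a level found with and without CACGTG, 81.6% fell and 11.3% rose. Any link of the motif to direction was not tested. The falls of ALDOA and GAPDH were not called lower with either other scaling. PGLS and RPIA fell further as deposited than LDHA and HK2, but these 2 genes do not test any link of motif to direction. The windows of PGLS and RPIA hold neither CACGTG nor ACGTG, though the window of RPIA does hold GCGTG. These are matches of letters in a window, and binding was not measured here.

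Hexokinases trap glucose in the cell as its phosphate. HK1, the widely expressed form, had 43.3 FPKM in the control and 70.1 and 70.2 with romidepsin, a log2 change of 0.68 (SE 0.037, adjusted p = 3.41e-06). HK2, the inducible form of many tumours, had 48.3 FPKM in the control and 31.6 and 32.5 with romidepsin, a change of -0.58 (SE 0.042, adjusted p = 1.45e-05). HK3, a form of myeloid cells, had 14.5 FPKM against 8.61 and 9.03 FPKM, a change of -0.66 (SE 0.060). The summed level of the 3 hexokinases was similar as deposited, at 106 FPKM in the control and 110 and 112 with romidepsin, while its make-up differed. HK1 held 40.8% of that sum in the control and 63.5% and 62.8% after romidepsin, and HK2 held 45.5% and then 28.7% and 29.1%. The order of the pair in the control was thus the reverse of that in both romidepsin libraries. The HK1 to HK2 ratio was 0.897 in the control and 2.21 and 2.16 after romidepsin, and the control order rests on 1 library.

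The other steps of upper glycolysis were mostly lower. GPI, the isomerase that follows hexokinase, fell from 144 FPKM to 91.6 and 89.1 FPKM, a log2 change of -0.67 (SE 0.036, adjusted p = 3.52e-06). HK3 (-0.66) and ALDOC (-0.63) fell by similar amounts, and both fell further than GPI with a pseudocount of 0.1 (-0.71 and -0.72 against -0.67). TPI1, which interconverts the triose phosphates, had 465 FPKM in the control and 310 and 320 with romidepsin (log2 change -0.56). Of the phosphofructokinases, which commit sugar to glycolysis, the liver form PFKL had 92.8 FPKM against 69.4 and 67.9 FPKM (-0.43). The platelet form PFKP had 76.4 FPKM against 75.6 and 72.7 FPKM and was not called (adjusted p = 0.348), although the other scalings called it higher. The muscle form PFKM had 0.594 FPKM against 1.56 and 1.22 FPKM, a change of 0.58 (adjusted p = 0.00653) that quantile normalization did not call (adjusted p = 0.606). Because PFKM was under 1 FPKM in the control, it was tested only through the romidepsin libraries. PFKL was the larger part of the family's FPKM in the control (54.7%, from 1 library) and PFKP the larger with romidepsin (51.6% and 51.3%). Aldolase, which cleaves the sugar bisphosphate, was almost all ALDOA, with 99.3% of the FPKM of ALDOA and the brain form ALDOC in the control and 99.5% and 99.4% after romidepsin. ALDOA had 1164 FPKM in the control and 958 and 915 with romidepsin, a change of -0.31 that was not called with the libraries scaled to the same sum (-0.07) or with quantile normalization (0.01). ALDOC was at 8.42 FPKM against 4.84 and 5.34 FPKM (log2 change -0.63). In all, 2 of the 10 genes of upper glycolysis rose and 7 fell (median -0.50), against 34.7% and 41.8% of all tested genes (median -0.05). The counts were 3 and 6 by equal sums, where 48.7% of all tested genes rose and 26.2% fell. By quantile normalization they were 2 and 6, where 31.7% rose and 37.5% fell.

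The bifunctional PFKFB enzymes make and remove fructose 2,6-bisphosphate, a strong activator of phosphofructokinase. PFKFB3, the form with the highest kinase activity, rose from 14.5 FPKM to 29.6 and 30.2 FPKM, a log2 change of 0.99 (SE 0.046, adjusted p = 1.67e-06). It lay at the edge of the 2-fold rule, with 0.98 in romidepsin library 1 and 1.01 in library 2, and was past it without library 1. Its mean FPKM with romidepsin was 2.06-fold that of the control. The log2 change was 1.04 with a pseudocount of 0.1, 1.22 by equal sums and 1.06 by quantile normalization. PFKFB4 rose from 4.37 FPKM to 6.26 and 6.52 FPKM (log2 change 0.46, adjusted p = 0.000729). PFKFB2, a form of heart and other tissues, did not reach 1 FPKM and was not tested, at 0.122 FPKM in the control and 0.823 and 0.907 with romidepsin. If its longest annotated transcript applies, these are about 14.5, 127 and 138 fragments. All 3 were higher in both romidepsin libraries than in the control, and they summed to 19.0 FPKM in the control and 36.7 and 37.6 with romidepsin. PFKFB3 held 76.4% of that sum in the control and 80.7% and 80.3% after romidepsin.

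Lower glycolysis held the largest rise, that of ENO2, and the most abundant transcript, that of GAPDH. ENO2, the enolase of neurons, had 0.372 FPKM in the control and 10.02 and 9.19 with romidepsin, a 25.8-fold difference in FPKM and a log2 change of 2.95 (SE 0.085, adjusted p = 2.96e-07). With its longest annotated transcript these values correspond to about 17.7 fragments in the control and 615 and 559 after romidepsin. ENO2 was under 1 FPKM in the control, so the filter admitted it only through the romidepsin libraries. The muscle form ENO3 rose from 2.73 FPKM to 4.31 and 4.25 FPKM (log2 change 0.50, adjusted p = 0.000919). ENO1, the form of most tissues, had 873 FPKM against 690 and 675 FPKM, a change of -0.35 that turned to 0.04 and was not called with quantile normalization. Even after its rise ENO2 held only 1.42% and 1.33% of the enolase FPKM (0.0425% in the control), ENO3 held 0.612% and 0.617% (0.311%), and ENO1 98.0% in each romidepsin library (99.6%). Enolase as a whole had 876 FPKM in the control and 705 and 689 with romidepsin.

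**Figure D3:**
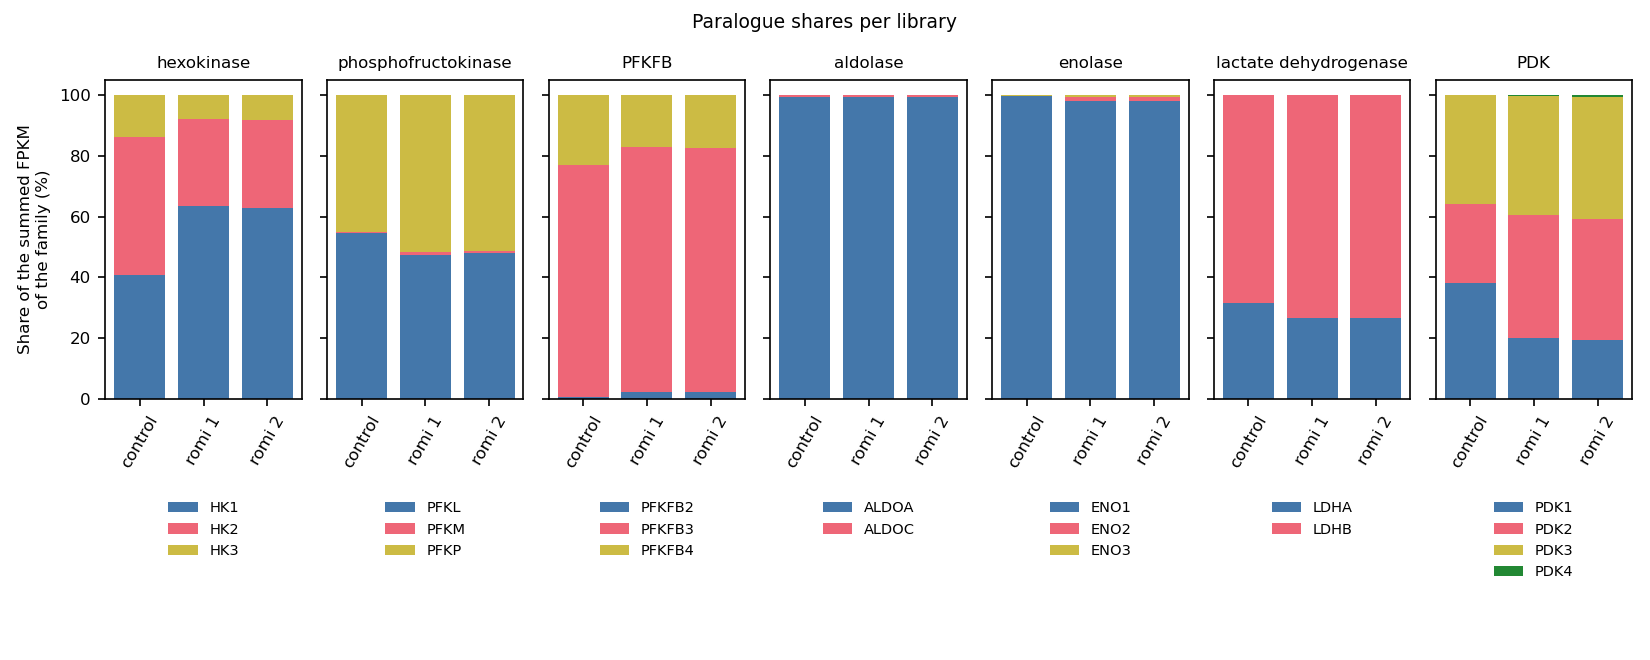
Share of each paralogue in the summed FPKM of its family (percent, bars from 0) in the control and the romidepsin libraries (romi 1, romi 2). HK1 grows from 40.8% to 63.5% and 62.8% of the hexokinases, PDK1 shrinks from 38.0% to 19.98% and 19.3% of the PDK genes, and ALDOA and ENO1 keep almost all of their families.

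ENO2 lies on chromosome 12 near TPI1, with 2 coding genes, SPSB2 and LRRC23, between them in RefSeq (GRCh38.p14). LRRC23, the next coding gene before ENO2, had 2.61 FPKM in the control and 1.71 and 2.32 with romidepsin and was not called (adjusted p = 0.115). ATN1, the next after it, had 11.6 FPKM against 10.8 and 10.7 FPKM (adjusted p = 0.128). SPSB2 rose from 4.66 FPKM to 6.85 and 7.27 FPKM (log2 change 0.51). The stretch of 10 coding genes from 3 before TPI1 to 3 after ENO2 was chosen with the rise of ENO2 known. GNB3 was too low to test, and ENO2 alone met the 2-fold rule. That rule was met by 7.43% of all tested genes upward and by 3.08% downward. C12orf57 was also called higher (0.28), and USP5 (-0.60) and PTPN6 (-0.48) were called lower, as was TPI1. GAPDH lies on the same chromosome, with 18 coding genes between it and TPI1.

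**Figure D4:**
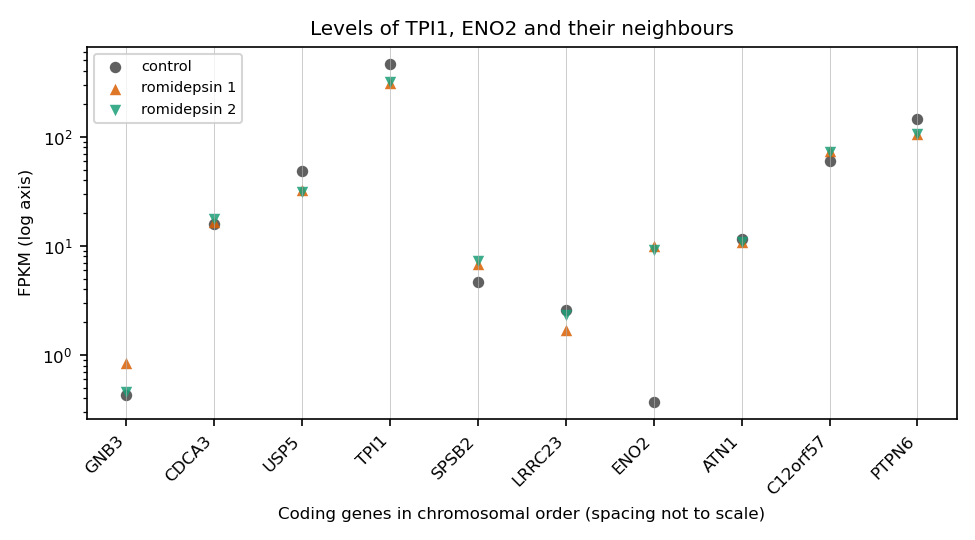
FPKM (log axis) of the 10 coding genes around TPI1 and ENO2 in chromosomal order, in the control (circles) and the romidepsin libraries (triangles). ENO2 is the only gene whose romidepsin values lie an order of magnitude above the control, while TPI1, USP5 and PTPN6 lie below it.

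PKM, the pyruvate kinase of most tissues and of tumours, rose, from 821 FPKM to 949 and 938 FPKM, a log2 change of 0.20 (adjusted p = 0.000634). GAPDH, the dehydrogenase of the triose phosphate and the most abundant of the 35, had 3542 FPKM in the control and 2982 and 2898 with romidepsin. That change of -0.27 was not called by equal sums (-0.03) and was a rise of 0.07 by quantile normalization (adjusted p = 0.0165). PGK1, the first ATP-yielding kinase, had the largest fall of the group, from 522 FPKM to 360 and 370 FPKM (log2 change -0.52, SE 0.033, adjusted p = 7.26e-06). PGAM1, the mutase, had 205 FPKM against 162 and 164 FPKM (-0.33, not called by quantile normalization, adjusted p = 0.382). BPGM, which makes the bisphosphoglycerate that regulates haemoglobin, had 11.9 FPKM in each of the 3 libraries (adjusted p = 0.956), but was called 0.23 higher with the libraries scaled to the same sum. The ratio of PKM to ENO1, which a scaling factor between libraries leaves as it is, was 0.940 in the control and 1.37 and 1.39 after romidepsin. Of the 8 genes of the group, 3 rose and 4 fell (median -0.13), where 34.7% and 41.8% of all tested genes did. By equal sums 4 rose and 3 fell, where 48.7% and 26.2% of all genes did, and by quantile normalization 4 and 1, where 31.7% and 37.5% did.

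Lactate dehydrogenase turns pyruvate into lactate and back. LDHA, the form that favours lactate, fell from 644 FPKM to 349 and 356 FPKM, a log2 change of -0.87 (SE 0.032, adjusted p = 7.09e-07). LDHB, the form of heart, fell from 1393 FPKM to 964 and 974 FPKM (-0.52, SE 0.030, adjusted p = 4.66e-06). Both were lower under each scaling. LDHB was the larger in every library, and the LDHA to LDHB ratio was 0.462 in the control and 0.362 and 0.366 after romidepsin.

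The oxidative branch of the pentose phosphate pathway held the largest fall as deposited. PGLS, the lactonase of this branch, fell from 149 FPKM to 73.8 and 71.6 FPKM, a log2 change of -1.02 (SE 0.037, adjusted p = 6.78e-07), the lowest of the 33 tested genes, while quantile normalization put PDK1 (-0.91) and RPIA (-0.77) below it (-0.76). PGD, the phosphogluconate dehydrogenase that acts after it, had 183 FPKM against 188 and 191 FPKM and was not called (adjusted p = 0.189), though both other scalings called it higher (0.29 and 0.35). H6PD, which carries out the first steps of the pathway in the endoplasmic reticulum, rose from 2.77 FPKM to 5.84 and 5.78 FPKM, and TIGAR, a phosphatase that favours this branch, from 2.55 FPKM to 4.397 and 4.31 FPKM. H6PD and TIGAR were chosen for mention after their values were seen.

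The enzymes that rearrange the pentoses were lower in the values as deposited. RPIA, the ribose phosphate isomerase, fell from 45.2 FPKM to 23.8 and 23.4 FPKM (log2 change -0.91, SE 0.043, adjusted p = 1.89e-06), and RPE, the epimerase, from 34.4 FPKM to 23.4 FPKM in each romidepsin library (-0.54). The more abundant TKT and TALDO1, which exchange carbon units with glycolysis, had smaller changes. TKT had 365 FPKM in the control and 313 and 294 with romidepsin (-0.27), and TALDO1 had 432 FPKM against 357 and 341 FPKM (-0.31). Both of these calls were lost both by equal sums (adjusted p = 0.574 and 0.141) and by quantile normalization (adjusted p = 0.836 and 0.983). None of the 6 pentose phosphate genes was called higher and 5 fell (median -0.42), against 34.7% and 41.8% of all tested genes. With either other scaling 1 rose and 3 fell. Of all tested genes 48.7% rose and 26.2% fell by equal sums, and 31.7% rose and 37.5% fell by quantile normalization. PGLS, PGD, TKT and TALDO1 had over 100 FPKM in the control, a level at which 81.6% of all tested genes fell.

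The kinases that switch off pyruvate dehydrogenase stood in another order in the romidepsin libraries than in the control, while their sum as deposited was similar. PDK1, a kinase known for induction in hypoxia, fell from 10.6 FPKM to 5.43 FPKM in each romidepsin library (log2 change -0.85, SE 0.065, adjusted p = 1.73e-05). PDK2, the form of widest tissue range, rose from 7.31 FPKM to 11.001 and 11.2 FPKM (0.54, SE 0.059, adjusted p = 0.000101). PDK3 had 9.98 FPKM against 10.6 and 11.3 FPKM (adjusted p = 0.105), but was called 0.34 higher with the libraries scaled to the same sum. PDK1 was the highest of the family in the control, at 38.0% of its FPKM against 35.8% for PDK3. That order rests on 1 control library. After romidepsin PDK1 held 19.98% and 19.3%. PDK2 (40.5% and 39.96%) and PDK3 (39.1% and 40.3%) then led it, and their order differed between the libraries. PDK4, the form induced in fasting, was not tested, at 0.0142 FPKM in the control and 0.110 and 0.125 with romidepsin, or about 0.854, 8.57 and 9.59 fragments with its longest annotated transcript. The PDK genes summed to 27.9 FPKM in the control and 27.2 and 28.1 with romidepsin.

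Of the E1 subunits of the complex, PDHB fell from 71.3 FPKM to 51.8 and 50.2 FPKM (log2 change -0.48, adjusted p = 2.72e-05). PDHA1, the subunit that the kinases phosphorylate, had 72.3 FPKM against 63.9 and 65.2 FPKM, a change of -0.16 that turned to 0.08 by equal sums and to 0.06 by quantile normalization and was called with neither. The phosphatase PDP1, which reactivates the complex, rose from 12.6 FPKM to 22.3 and 24.5 FPKM (0.84, adjusted p = 1.61e-05). PDP2, the other phosphatase, had 8.46 FPKM against 7.07 and 6.67 FPKM (-0.27, adjusted p = 0.0087), a call lost with the libraries scaled to the same sum (adjusted p = 0.496). The list of pyruvate entry genes that holds the carriers, the other subunits and these phosphatases had 3 of 10 higher and 5 lower, near the 34.7% and 41.8% of all tested genes. By equal sums 6 were higher and 3 lower, against 48.7% and 26.2% of all genes.

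Among the glucose transporters at the head of the pathway some rose and some fell. SLC2A3, the high-affinity transporter GLUT3, rose from 12.6 FPKM to 61.4 and 62.0 FPKM (log2 change 2.20, SE 0.041, adjusted p = 6.01e-08). SLC2A1, the widely expressed GLUT1, fell from 15.9 FPKM to 10.5 and 10.96 FPKM (-0.52, adjusted p = 0.000101). SLC2A5, a fructose transporter with the highest control level of the 4 SLC2A genes listed, fell from 34.97 FPKM to 17.53 and 17.45 FPKM (-0.96, SE 0.046, adjusted p = 1.92e-06), and was chosen for mention after its values were seen. SLC2A6 rose from 0.814 FPKM to 5.65 and 5.88 FPKM (1.90), admitted by the filter only through the romidepsin libraries. In the transport list of 7 genes, 4 rose and 3 fell under each of the 3 scalings, where 34.7%, 48.7% and 31.7% of all tested genes rose and 41.8%, 26.2% and 37.5% fell (as deposited, by equal sums and by quantile normalization). Among 11 regulators, 4 rose and 3 fell, against 34.7% and 41.8% of all tested genes. By equal sums 8 rose and 3 fell, against 48.7% and 26.2%. MYC, a transcription factor that drives many glycolytic genes, fell from 362 FPKM to 119 and 116 FPKM (-1.61, adjusted p = 1.24e-07), and TXNIP, which restrains glucose uptake, rose from 21.1 FPKM to 97.2 and 96.8 FPKM (2.15). HIF1A, the oxygen-regulated subunit of the hypoxia-inducible factor, rose from 18.1 FPKM to 25.0 and 25.6 FPKM (0.46). Of 13 tested hypoxia-inducible targets outside glycolysis, 5 rose and 5 fell, near the 34.7% and 41.8% of all tested genes, with a median of -0.05 for both. By equal sums 6 rose and 4 fell (median 0.16), where 48.7% and 26.2% of all tested genes did. By quantile normalization 5 rose and 5 fell (median -0.12), where 31.7% and 37.5% did. The isoform genes of other tissues stayed low, and 10 of those 11 did not reach 1 FPKM in any library. The exception was PGAM4, a near-copy of PGAM1, at 20.1 FPKM against 17.6 and 15.97 FPKM, whose reads cannot be told from those of PGAM1 in these tables.

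Read by level, the falls among these genes were about as frequent as among other genes of like abundance. Of the 14 genes with at least 100 FPKM in the control, 12 fell and 1 (PKM) rose, where 81.6% of the 982 genes at this level fell and 11.3% rose. Of the 8 genes from 20 to 100 FPKM, 6 fell and 1 (HK1) rose, against 61.3% and 21.9%. Of the 9 from 1 to 20 FPKM, 4 rose and 3 fell, against 37.6% and 31.6%. Of the 4 genes under 1 FPKM in the control, the 2 tested (ENO2 and PFKM) rose, as did 86.8% of the 870 tested genes at this level, which had to reach 1 FPKM with romidepsin to be tested at all; no gene there was called lower. The 35 genes together held 11472 FPKM in the control and 9262 and 9109 with romidepsin, or 1.87% of the summed FPKM of named genes in the control and 1.78% and 1.76% after romidepsin.

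**Figure D5:**
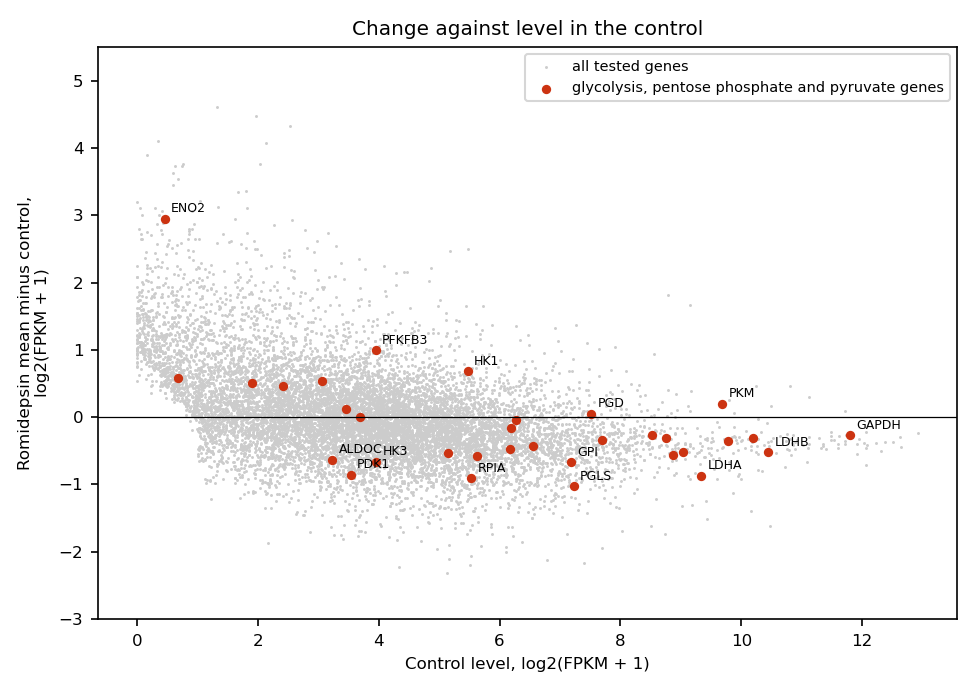
Change with romidepsin (mean difference in log2(FPKM + 1) from the control) against the level in the control, for all 11708 tested genes (grey) and the 33 tested glycolysis, pentose phosphate and pyruvate genes (red). Abundant genes lie mostly below 0, the red points among them, and PKM is the red point above 0 at high level that passed the test.

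Processed pseudogenes limit how exactly the abundant transcripts are counted. In GENCODE release 29, 14 of the 35 genes have pseudogenes named for them, 110 in all, of which GAPDH has 62 and PGAM1 has 13. How the authors' counting shared reads between a gene and its copies is unknown from the sources used here, and the levels of such genes are uncertain. With 1 control library, a difference between cultures and the effect of romidepsin cannot be told apart.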

How the data were processed

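RNA of 3 libraries (1 control, 2 romidepsin) was read from 1 table per library with 28837 rows. Its columns hold FPKM as the authors deposited it, per the file headers. The submitters' processing notes list TopHat, Cufflinks, Cuffdiff and hg19. The sources used here give no versions, settings or annotation. The 1770 rows with no gene name (21.1% to 22.3% of the summed FPKM) and the 27 rows named by a number were left out. Rows of a symbol were summed.

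Genes with at least 1 FPKM in 1 library (11708) were fitted on log2(FPKM + 1) with limma 3.58.1 in R 4.3.3 (lmFit, eBayes with a mean-variance trend), Benjamini-Hochberg adjustment over all of them and calls at 0.05. Only the romidepsin pair contributes spread (1 residual degree of freedom), which the single control is taken to share. The script was run on simulated data in which every library, the control included, was given the spread of the romidepsin pair. Such data cannot show whether the single control shares that spread. A rule with no test asked for 2-fold in both romidepsin libraries. Depth was approximated from the steps of low values in genes with 1 transcript in GENCODE release 29, a different build, so it combines depth with scaling. Statistics over lists used Python 3.11.15 and pandas 2.3.3.

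The genes and lists were chosen with earlier results of these data known. All 35 genes are given by level. Full statistics are given for those past 2-fold and for the largest rise and fall of each role group. Outside the 35, genes past 2-fold in the lists and SLC2A1, MYC, HIF1A, PDP1 and PDP2 are named by rule, while H6PD, TIGAR, SLC2A5 and PGAM4 were added after their values were seen, and results for some other genes of the lists are not reported here. Alternatives were the pseudocount, the filter, the scaling, the rows used, the trend and each romidepsin library left out.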

Additional observations from a re-analysis of the deposited data

How the results depend on the processing

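The count of genes at least 2-fold higher in both libraries was 1 as reported and 2 with a pseudocount of 0.1 and with either other scaling (equal sums or quantile normalization). Leaving out 1 romidepsin library gave 1 to 2, the second being PFKFB3 without romidepsin replicate 1. The count of those 2-fold lower was 1 as reported and 0 with either other scaling, where PGLS stayed lower by the test. With the 1.5-fold rule, chosen after seeing the data, 3 were higher and 6 lower. With no filter on low values, limma called 4 genes higher and 11 lower instead of 8 and 21, and the cause was not tested. The share of all genes called in that fit was not counted, so the loss cannot be read as particular to these genes. The median change of the genes was -0.073 with libraries scaled to the same sum and 0.010 by quantile normalization. The medians of all tested genes were 0.161 and -0.050 in that order. Signs turned with libraries scaled to the same sum for PFKP (0.19) and PDHA1 (0.076), and by quantile normalization for PFKP (0.18), ALDOA (0.013), GAPDH (0.070), ENO1 (0.038), TKT (0.010) and PDHA1 (0.057). The cause of these turns was not tested beyond the scaling itself. A pseudocount of 0.1, no trend, a mean of at least 5 FPKM and only symbols in 1 row naming 1 gene left the direction and call of every gene they tested in place. Shares of the 20 paralogues moved by at most 0.559 percentage points when a romidepsin library was left out. Without a romidepsin library no residual degrees of freedom remain, so those are values with no test. No paired analysis was possible because there is only 1 control library. Depth limits the genes under 1 FPKM, of which PDK4 rests on about 0.854 fragments in the control.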
